A study of Mus musculus with 4 samples.

Results

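The 10 genes Tcf21, Msc, Wt1, Gata4, Gata6, Tbx15, Nr2f1, Sox9, Shox2 and En1 encode transcription factors that pattern tissues in the embryo and are known for differing between fat depots. They were taken by symbol from the 32290 features of the count tables, where all 10 were found, and were followed in stromal and mesothelial cells of subcutaneous (SC) and intraperitoneal (IP) adipose tissue (AT). Of 4119 barcodes kept, 764 were stromal and 35 mesothelial. The comparisons were IP against SC within each genotype, and KO against WT within each depot.

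Fat depots keep a record of where they arose. Adipose stromal cells (ASC), the fibroblast-like cells that hold the adipocyte progenitors, go on expressing factors set during patterning of the embryo, and Tbx15, Shox2 and En1 are textbook examples for subcutaneous fat while Wt1 and Tcf21 are for visceral fat. The mesothelium, the epithelial sheet that covers visceral organs and visceral fat, is itself a Wt1-expressing tissue and shares its origin in the lateral mesoderm with part of the visceral stroma.

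The study profiled AT of mice lacking Tert, the catalytic subunit of telomerase, in endothelial cells (EC). KO mice were Tie2e-cre; TERTfl/fl; mTmG and WT mice Tie2e-cre; TERT+/+; mTmG, so both genotypes carried the recombinase and the mTmG reporter of recombination, and only the KO carried floxed alleles. All mice were males of 7 months after 5 months of high-fat diet (HFD). Each of the groups WT SC, KO SC, WT IP and KO IP was 1 library of single cells run with the 10x Genomics Chromium 3' chemistry. The Tie2e promoter drives Cre in EC, so stromal and mesothelial cells were not the intended target. The study reports adipocytes derived from EC, more often in KO. Whether any of the cells described here had recombined was not examined. How many mice were pooled in a library is not stated, and the labels speak of cells in one place and of nuclei in another. In the study's methods inguinal fat served as the subcutaneous depot and gonadal fat as the visceral depot, and cells were freed with collagenase.

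A stromal cell was a kept barcode with at least 3 UMIs of Dcn, the proteoglycan decorin, and 0 UMIs of Ptprc, the pan-leukocyte antigen. A mesothelial cell had 0 UMIs of Ptprc and a UMI of at least 3 of 8 mesothelial markers, and cells that met both gates were counted as mesothelial. The SC libraries gave 95 (WT) and 192 (KO) stromal cells with 1744313 and 1678716 UMIs, and the IP libraries 271 (WT) and 206 (KO) with 6021293 and 4327787 UMIs. All 7 stromal markers had UMIs in each library, and Pdgfra, a receptor that marks ASC and was not used by the gate, ran from 244 to 375 CPM, where CPM is counts per 1000000 counts of the same cells. Over all barcodes Tert, the targeted gene, gave 3 (WT) and 2 (KO) UMIs in SC and 8 (WT) and 9 (KO) in IP. In stromal cells lay 8 (WT) and 8 (KO) of those in IP and 0 of those in SC. These counts are few and in IP nearly all stromal, so they cannot check the knockout in EC. A level below is the summed stromal UMIs of a gene scaled to CPM of all stromal UMIs of the library. With 1 library per group no test was possible, so every interval in parentheses is a 95% interval for counting error alone and holds no spread between mice.

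Libraries KO SC and WT IP shared 93 cell barcodes, where other pairs of libraries shared 0 or 1. The 93 were among the 118 deepest barcodes of WT IP, those with at least 27629 UMIs. Their total in KO SC was a nearly fixed share of that in WT IP, with a median of 1.71% and a range of 1.5% to 1.99% over 92 of them and 20.1% in the remaining 1. They held 69 of the 192 stromal cells of KO SC, at a depth far below the others, since the median stromal cell of KO SC had 5662 UMIs with them and 14240 without. All 7 Tcf21 UMIs and all 7 Wt1 UMIs of KO SC stroma lay on these barcodes, whereas none of its 242 Tbx15, 69 Shox2 and 35 En1 UMIs did. Depot and genotype ratios of the listed genes in KO are therefore given with and without them where these barcodes held UMIs of the gene, and the ratios of the other listed genes moved through the library total alone, by 0.04 on the log2 scale. Thinning to a fixed depth, used below, kept 0 of them. The source of the overlap was not tested.

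**Figure D1:**
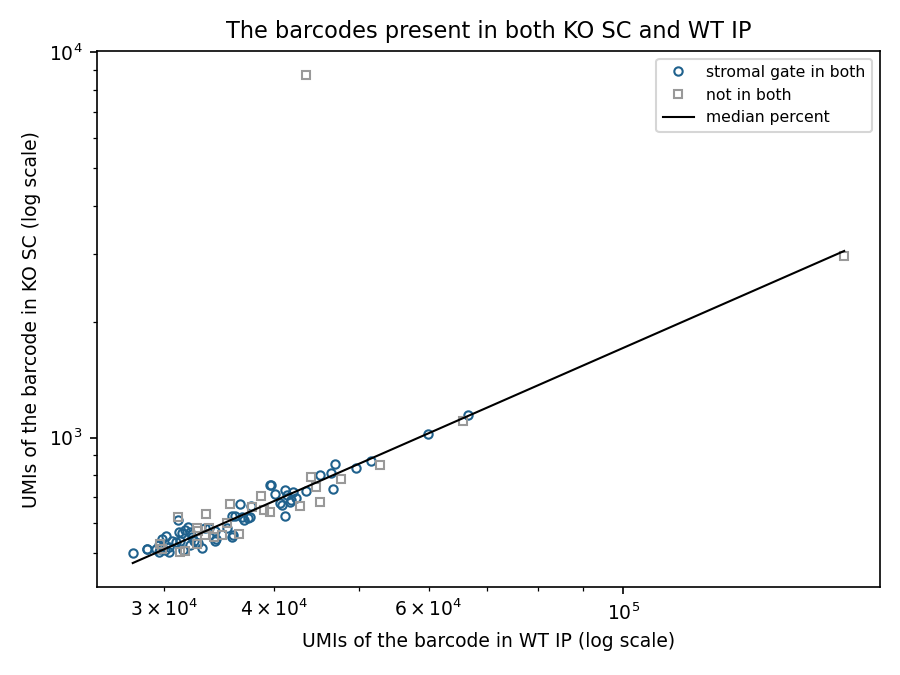
UMIs of each of the 93 shared barcodes in KO SC (y axis, log scale) against its UMIs in WT IP (x axis, log scale). Circles are barcodes in the stromal gate of both libraries, squares are the others, and the line is the median of 1.71%. All points but 1 lie along the line.

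Where 250 bases of sequence before a transcription start were at hand, they are shown for 3 genes with a single window, of which 1 was higher in IP (Tcf21) and 2 were higher in SC (Shox2 and En1). Nr2f1, also higher in IP, had 2 windows and is given by its matches. They are RefSeq promoter windows of GRCm38.p6, printed 5′ to 3′ on the strand of the gene, at chr10:22820144-22820393 (minus strand) for Tcf21, chr3:66981772-66982021 (minus strand) for Shox2 and chr1:120602237-120602486 (plus strand) for En1. Capitals mark the E-box, CANNTG, the hexamer bound by basic helix-loop-helix (bHLH) factors such as Tcf21 and Msc.
Tcf21: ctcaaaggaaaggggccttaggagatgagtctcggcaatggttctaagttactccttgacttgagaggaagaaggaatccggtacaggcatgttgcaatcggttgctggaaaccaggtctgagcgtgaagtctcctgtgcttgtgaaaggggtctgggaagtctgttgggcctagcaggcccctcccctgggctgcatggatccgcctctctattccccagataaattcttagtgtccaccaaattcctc
Shox2: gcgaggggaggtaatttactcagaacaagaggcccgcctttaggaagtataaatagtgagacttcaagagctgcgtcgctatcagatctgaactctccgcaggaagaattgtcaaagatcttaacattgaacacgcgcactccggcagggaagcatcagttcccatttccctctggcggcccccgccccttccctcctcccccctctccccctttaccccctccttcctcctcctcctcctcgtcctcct
En1: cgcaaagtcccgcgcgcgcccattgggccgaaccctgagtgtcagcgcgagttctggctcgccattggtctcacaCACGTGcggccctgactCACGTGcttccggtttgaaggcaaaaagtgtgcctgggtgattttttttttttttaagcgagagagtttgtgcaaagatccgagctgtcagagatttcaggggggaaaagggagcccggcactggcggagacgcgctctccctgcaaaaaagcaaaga

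In the full windows of 300 bases, which reach 50 bases past the start, En1 held 3 matches to CANNTG and Tcf21 and Shox2 held 0. Of the 2 windows of Nr2f1, the one at chr13:78196400-78196699 held 3 matches to CANNTG, 2 to TAAT or ATTA and 4 CpG dinucleotides, and the one at chr13:78198824-78199123 held 0, 0 and 23, with 0 GATA or TATC matches in either. Of 32851 windows over all genes, 72.3% held at least 1 match, so the motif is common. The letters GATA or TATC, the core read by GATA factors on either strand, were matched 2 times in Tcf21, 1 time in Shox2 and 0 times in En1, against 57.9% of all windows with a match. TAAT or ATTA, the core of many homeodomain sites, was matched 0 times in Tcf21 and 1 time in both Shox2 and En1, against 58.0% of all windows. The window of En1 held 23 CpG dinucleotides, against 11 in Shox2, 8 in Tcf21 and a median of 7 over all windows. These matches describe letters in a window and do not show binding.

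Between depots the same 7 genes were called in the same direction in both genotypes. Tcf21, Wt1, Sox9 and Nr2f1 were higher in IP stroma, Tbx15, Shox2 and En1 were higher in SC stroma, and Gata6, Msc and Gata4 were not called either way. A gene was called when its CPM differed at least 2-fold and its counting interval left out equality, among genes whose UMIs in the pair of libraries summed to 20 or more. In WT, 4 of the 9 listed genes that passed this filter were called higher in IP, against 7.77% of all 11653 genes that passed, and 3 were called lower, against 6.23%. In KO, 4 of 9 were called higher in IP, against 9.04% of 11309 genes, and 3 lower, against 5.69%. Gata4 alone did not pass. Tcf21, Wt1, Tbx15, Shox2 and Sox9 passed through the depot where they were high, as the other depot held 15 UMIs or fewer. So did En1 in WT, where IP held 14 UMIs. The count among genes that passed is therefore a description. The median log2 ratio over the 9 genes, which mixes both directions, was 0.63 in WT and 0.92 in KO, against 0.077 and 0.100 over all genes. The depot contrasts of WT and KO draw on different libraries, though KO SC and WT IP share the 93 barcodes described above.

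Marker sums of stromal states differed between depots as well. The 5 markers of early progenitors, which include Dpp4 and Pi16, summed to 5638 (WT) and 4788 (KO) CPM in SC stroma and 981 and 1449 CPM in IP stroma. The 5 markers of committed stromal cells summed to 2131 and 2111 CPM in SC and 4427 and 3327 CPM in IP. Of these, Icam1, Lpl and Col4a1 were higher in IP in both genotypes. Pparg was at 34.97 (WT) and 34.55 (KO) CPM in SC and 32.55 and 30.96 CPM in IP. Fabp4 was at 359.5 and 497 CPM in SC and 386.5 and 258 CPM in IP. The 6 mural markers summed to 38.4 and 31.0 CPM in SC and 117 and 72.5 CPM in IP, while Cspg4 in both genotypes, Notch3 in KO and Higd1b in WT were lower in IP. All 5 markers of both stromal states were detected in each library, while of the mural markers Rgs5 was at 0 in both SC libraries. The part of this makeup in the depot ratios was not tested beyond the split by Dpp4 and Pi16 given below.

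**Figure D2:**
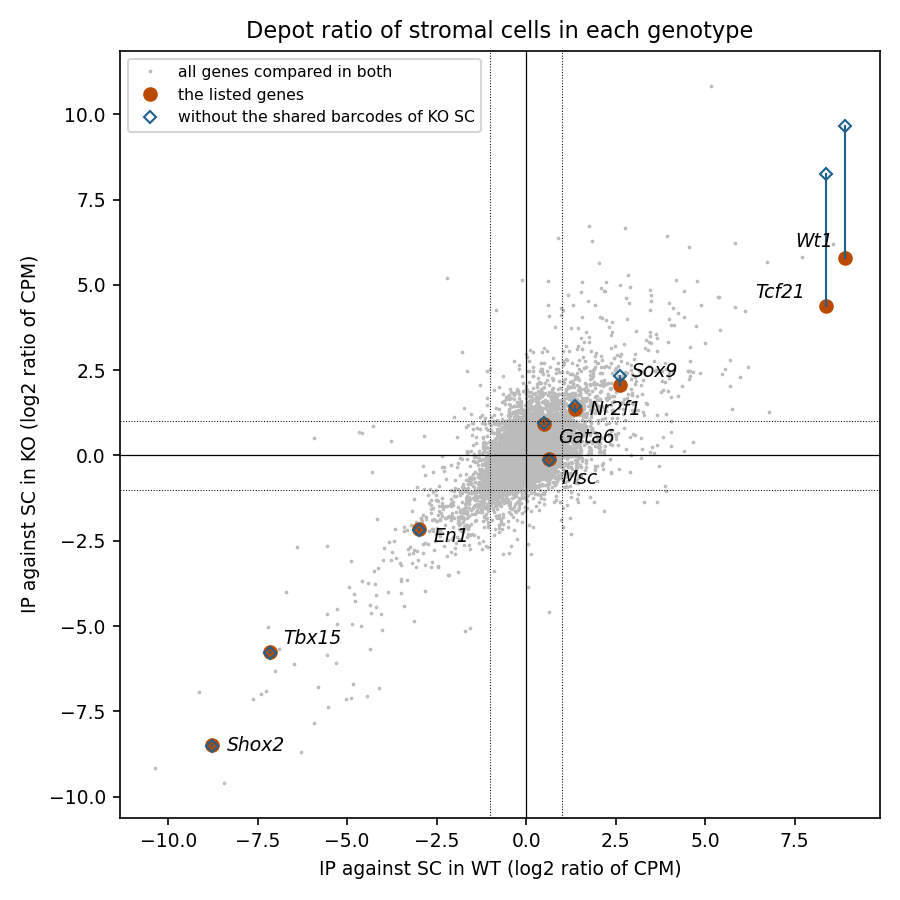
Log2 ratio of stromal CPM, IP against SC, in WT (x axis) and KO (y axis). Grey points are all genes compared in both genotypes, filled circles are the 9 listed genes that passed the filter, diamonds joined to them are the same with the shared barcodes left out of KO SC, and dotted lines mark 2-fold. Wt1 and Tcf21 lie at the far upper right and Shox2 and Tbx15 at the far lower left, and leaving out the shared barcodes moved Tcf21 from 4.37 to 8.24 and Wt1 from 5.80 to 9.67.

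Tcf21 (chromosome 10, 22817281 to 22820174, minus strand of GRCm38) encodes a bHLH factor of the visceral mesoderm, needed for the mesenchyme of lung, kidney and spleen. Stromal UMIs were 0 (WT) and 7 (KO) in SC and 568 (WT) and 398 (KO) in IP, which is a level of 0 and 4.17 CPM against 94.3 and 92.0 CPM. Both IP libraries lay far above both SC libraries. With 3 counts allowed for a count of 0, the level in WT IP was at least 54.9-fold that in WT SC. In KO the log2 ratio was 4.37 (3.41 to 5.79), and at least 50.1-fold without the shared barcodes, where KO SC held 0 UMIs. Giving every cell the same weight lowered the KO ratio to 0.535, which ends the call, with the 7 UMIs on shared barcodes included. Among 11653 genes ranked by the WT ratio, Tcf21 was in position 3 from the top, and in KO it was in position 55 of 11309, or 5 of 11292 without the shared barcodes. The UMIs were spread over cells, with 151 of 271 stromal cells of WT IP (55.7%, 49.6% to 61.7%) and 123 of 206 of KO IP (59.7%, 52.7% to 66.5%) holding at least 1, and no single cell giving more than 7.54% of the total.

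Msc (chromosome 1, 14753346 to 14755992, minus strand) encodes musculin, a bHLH repressor of the same subfamily as Tcf21. Its pattern differed from that of its relative. UMIs were 20 (WT) and 23 (KO) in SC and 109 (WT) and 56 (KO) in IP, or 11.5 and 13.7 CPM against 18.1 and 12.9 CPM. The log2 ratio of IP against SC was 0.63 in WT (-0.04 to 1.43) and -0.10 in KO (-0.81 to 0.69), so both intervals held 0.

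Wt1 (chromosome 2, 105126529 to 105173616, plus strand) encodes the Wilms tumour zinc finger protein, required for kidney, gonad and mesothelium and a marker of visceral fat progenitors. Stromal UMIs were 0 (WT) and 7 (KO) in SC and 830 (WT) and 1075 (KO) in IP, or 0 and 4.17 CPM against 138 and 248 CPM. In WT the level in IP was at least 80.2-fold that in SC, which was the highest ratio of 11653 genes. In KO the log2 ratio was 5.80 (4.85 to 7.22), in position 13 of 11309, and without the shared barcodes the level in IP was at least 135-fold higher, in position 3 of 11292. With every cell weighted equally and the shared barcodes kept, the KO ratio was 1.63. At least 1 UMI was found in 176 of 271 stromal cells of WT IP (64.9%, 58.9% to 70.6%) and in 134 of 206 of KO IP (65.0%, 58.1% to 71.5%). After each cell was thinned to 2000 UMIs, which leaves out shallower cells, Wt1 was found in 16.9% of 248 cells of WT IP and 24.6% of 183 of KO IP, and in 0 of 86 of WT SC and 0 of 114 of KO SC, which allows shares of cells with a UMI of up to 3.49% and 2.63%. The number of cells left out was 23 in each IP library, 9 in WT SC and 78 in KO SC.

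Wt1os, a noncoding gene on the opposite strand, starts 5′ of the Wt1 start and does not overlap Wt1 (chromosome 2, 105076538 to 105126510, minus strand). Wt1os had 0 (WT) and 1 (KO) UMIs in SC and 181 (WT) and 197 (KO) in IP, or 0 and 0.596 CPM against 30.1 and 45.5 CPM. The divergent neighbour was thus also found in IP stroma and at most at 1 UMI in SC stroma, which lay on a shared barcode.

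Gata4 and Gata6 encode zinc finger factors of heart, gut and the lining of the body cavity. Gata4 (chromosome 14, 63198922 to 63271692, minus strand) was close to undetected in stroma, with 0 UMIs in both SC libraries, 5 in WT IP and 4 in KO IP. Those counts allow no ratio, and a depot difference in stromal Gata4 was not detectable at this depth. Gata6 was present in all 4 libraries, with 72 (WT) and 79 (KO) UMIs in SC and 351 (WT) and 388 (KO) in IP, or 41.3 and 47.1 CPM against 58.3 and 89.7 CPM. It was higher in IP beyond counting error in both genotypes but by less than 2-fold, with a log2 ratio of 0.49 in WT (0.13 to 0.89) and 0.92 in KO (0.58 to 1.30). Without the shared barcodes, which held 3 of its KO SC UMIs, the KO ratio was 0.94 (0.59 to 1.32).

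Tbx15 (chromosome 3, 99240381 to 99354259, plus strand), a T-box factor of limb and trunk skeleton and dermis, showed the reverse pattern. Stromal UMIs were 266 (WT) and 242 (KO) in SC and 6 (WT) and 11 (KO) in IP, or 152.5 and 144 CPM against 0.997 and 2.54 CPM. The log2 ratio of IP against SC was -7.14 in WT (-8.72 to -6.12), in position 11 from the bottom, and -5.76 in KO (-6.85 to -4.96), in position 30 from the bottom. Tbx15 was found in 54 of 95 stromal cells of WT SC (56.8%, 46.3% to 67.0%) and 74 of 192 of KO SC (38.5%, 31.6% to 45.8%). The shared barcodes held 0 of these 74 cells, and without them the share in KO SC was 74 of 123 (60.2%, 50.95% to 68.9%), close to that of WT SC. In cells thinned to 2000 UMIs the shares were 19.8% of 86 and 19.3% of 114.

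Shox2 (chromosome 3, 66971727 to 66981771, minus strand), a homeobox factor of proximal limb and of the cardiac pacemaker, was found in SC stroma only, in both genotypes. Stromal UMIs were 63 (WT) and 69 (KO) in SC and 0 in both IP libraries, or 36.1 and 41.1 CPM against limits of 0.498 CPM in WT IP and 0.693 CPM in KO IP. The level in IP was at least 72.5-fold lower in WT and at least 59.3-fold lower in KO, and Shox2 stood in position 4 from the bottom in both genotypes. It was found in 0 of 271 stromal cells of WT IP, which allows a share of cells with a UMI of up to 1.11%, and in 0 of 206 of KO IP, which allows up to 1.46%. These limits concern detection, since in SC a Shox2 UMI was found in 36 of 95 (WT) and 50 of 192 (KO) stromal cells, or 50 of 123 (KO) without the shared barcodes. With a gate of at least 1 Dcn UMI, a looser one, the KO log2 ratio was -5.07 (-6.87 to -3.91).

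En1 (chromosome 1, 120602418 to 120607992, plus strand), the engrailed homeobox factor of the midbrain, ventral limb and dorsal dermis, was lower in IP but not absent. UMIs were 33 (WT) and 35 (KO) in SC and 14 (WT) and 20 (KO) in IP, or 18.9 and 20.9 CPM against 2.33 and 4.62 CPM. The log2 ratio was -2.996 in WT (-4.04 to -2.08) and -2.16 in KO (-3.04 to -1.34). With every cell weighted equally the WT ratio was -1.57. No stromal cell held more than 4 En1 UMIs in any library.

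Sox9, an HMG-box factor of cartilage and of many progenitor cells (chromosome 11, 112782224 to 112787760, plus strand), was higher in IP. UMIs were 15 in each SC library and 326 (WT) and 167 (KO) in IP, or 8.60 and 8.94 CPM against 54.1 and 38.6 CPM. The log2 ratio was 2.61 in WT (1.91 to 3.51) and 2.07 in KO (1.35 to 2.98), or 2.34 (1.55 to 3.38) in KO without the shared barcodes, which held 3 of the 15 KO SC UMIs. Giving every cell the same weight turned the KO ratio to -0.10, and with the shared barcodes also left out it was 1.80.

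Nr2f1 (chromosome 13, 78188973 to 78199757, minus strand) encodes COUP-TFI, an orphan nuclear receptor of neural and mesenchymal patterning. UMIs were 22 (WT) and 24 (KO) in SC and 198 (WT) and 162 (KO) in IP, or 12.6 and 14.3 CPM against 32.9 and 37.4 CPM. The log2 ratio was 1.35 in WT (0.74 to 2.09) and 1.36 in KO (0.77 to 2.07), the smallest of the called depot ratios. Without the shared barcodes, which held 2 of the 24 KO SC UMIs, the KO ratio was 1.45 (0.83 to 2.19). With every cell weighted equally it was 0.595, which ends the call, and 1.485 with the shared barcodes also left out. The antisense gene A830082K12Rik (78198017 to 78279391, plus strand) overlaps its 5′ end, and whether counting used strand is not given in the sources used here, so that reads from the overlap cannot be told apart. That gene had 23 (WT) and 22 (KO) UMIs in SC and 148 (WT) and 51 (KO) in IP, or 13.2 and 13.1 CPM against 24.6 and 11.8 CPM, and in KO its level was no higher in IP than in SC.

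**Figure D3:**
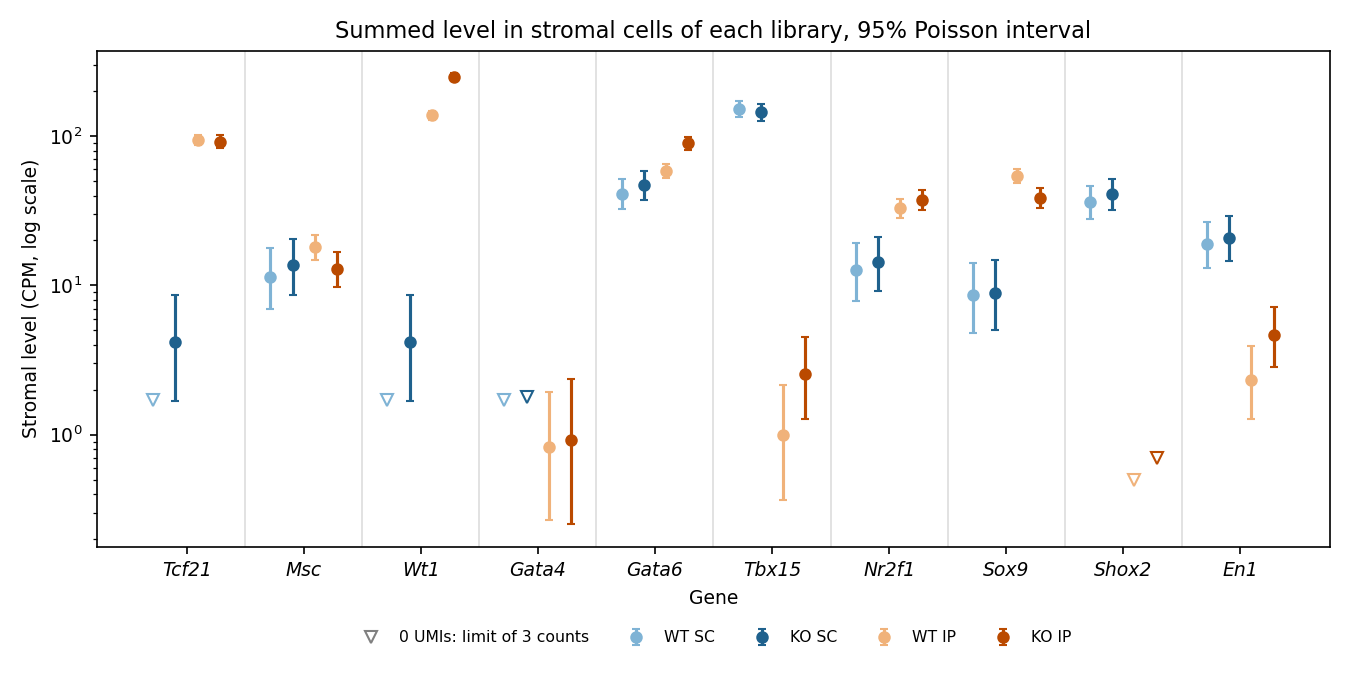
Level of each listed gene in stromal cells (y axis, CPM on a log scale) in the 4 libraries. Points are summed levels, bars are 95% Poisson intervals, and open triangles mark libraries with 0 UMIs at the level that 3 counts would give. Tcf21 and Wt1 lie at or above 92.0 CPM in both IP libraries, and Tbx15 at or above 144 CPM in both SC libraries.

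Between genotypes no listed gene was called in either depot. In SC, 7 of the 10 passed the filter and 0 were called higher in KO, against 2.41% of all 9727 genes, and 0 lower, against 2.07%. In IP, 7 passed and 0 were called higher, against 3.28% of 12274 genes, and 0 lower, against 1.88%. The median log2 ratio of those that passed was 0.18 in SC and 0.19 in IP, against 0.011 and 0.060 over all genes. The SC intervals all held 0. Tbx15 gave the narrowest, with a log2 ratio of -0.08 (-0.34 to 0.18), followed by Gata6 at 0.19 (-0.29 to 0.67) and Shox2 at 0.19 (-0.33 to 0.70). Intervals for Msc, Nr2f1, Sox9 and En1 in SC reached from -1.08 at the lowest to 1.20 at the highest, so a change of up to about that size was not detectable at this depth. Without the shared barcodes the SC ratio was 0.17 (-0.31 to 0.66) for Gata6, 0.09 (-0.83 to 1.01) for Nr2f1 and -0.22 (-1.46 to 0.97) for Sox9, and all 7 intervals again held 0. Tcf21 and Wt1, each with 7 UMIs in KO SC and 0 in WT SC, did not pass, and without the shared barcodes both SC libraries held 0 of each.

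In IP stroma 4 of the 7 intervals left out 0, where 31.4% of all genes compared did so. Wt1 was higher in KO IP, at 248 against 138 CPM with a log2 ratio of 0.85 (0.72 to 0.98), and so was Gata6, at 89.7 against 58.3 CPM with a ratio of 0.62 (0.41 to 0.83). Sox9 was lower, at 38.6 against 54.1 CPM with a ratio of -0.49 (-0.77 to -0.22), and Msc was lower, at 12.9 against 18.1 CPM with a ratio of -0.48 (-0.98 to -0.01). All 4 stayed under 2-fold. The interval of Tcf21 held 0 and was narrow, at -0.04 (-0.23 to 0.15), and that of Nr2f1 held 0 at 0.19 (-0.12 to 0.49). En1, with 20 (KO) and 14 (WT) UMIs, had a ratio of 0.98 (-0.07 to 2.09). Tbx15, with 11 against 6 UMIs, did not pass.

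**Figure D4:**
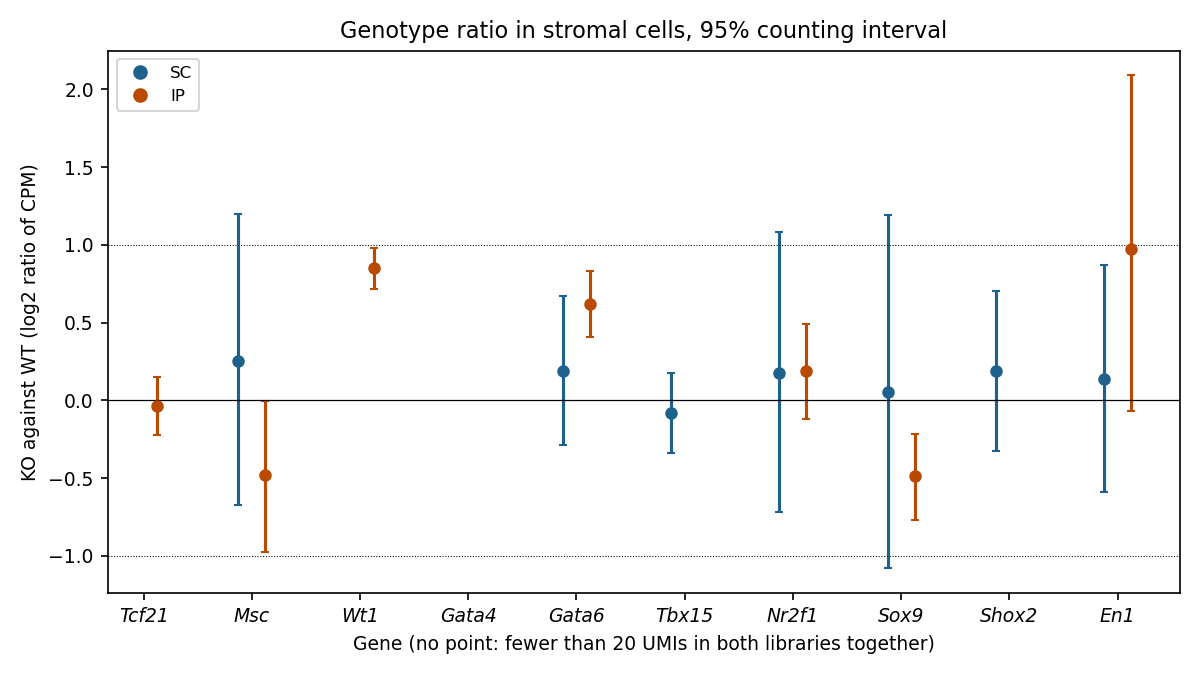
Log2 ratio of stromal CPM, KO against WT, in SC and in IP (y axis) for each listed gene that passed the filter. Bars are 95% counting intervals and dotted lines mark 2-fold. All SC intervals cross 0, and in IP those of Wt1 and Gata6 lie above 0 and those of Sox9 and Msc below.

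Marker sums of other cell kinds also differed between the IP libraries, though not every marker moved with its sum. The 8 mesothelial markers summed to 20.3 CPM in KO IP stroma and 14.1 CPM in WT IP stroma, with 7 of 8 and 4 of 8 detected. They summed to 26.9 (WT) and 26.2 (KO) CPM in SC stroma, although both SC libraries held 0 mesothelial cells. Nkain4, the largest part of both IP sums, was at 12.25 (KO) and 13.12 (WT) CPM. The defining marker Msln was at 0 in both IP libraries, and Muc16 had 17 (KO) and 2 (WT) UMIs. Leaving out stromal cells with a UMI of any of these markers but Nkain4, which took 16 cells from KO IP and 6 from WT IP, gave ratios of 0.81 for Wt1, 0.70 for Gata6 and -0.44 for Sox9. Keeping the mesothelial cells among the stromal cells raised Wt1 to 1.13 and Gata6 to 1.05 and brought 3 listed genes past the call, the other being Gata4. The 6 mural markers, of the muscle cells around vessels, summed to 117 CPM in WT IP stroma and 72.5 CPM in KO IP stroma. Acta2 (52.15 and 27.5 CPM) and Notch3 (40.5 and 15.25 CPM) were lower in KO IP, and so were Cspg4 and Higd1b by little. Myh11 (19.9 and 24.5 CPM) and Rgs5 (0.830 and 1.85 CPM) were higher in KO IP. Cells with at least 3 mural markers were 11 in WT IP and 0 in KO IP. Leaving them out gave 0.79 for Wt1, -0.52 for Sox9 and 1.10 for En1 (0.02 to 2.29), which passed the call. Sox9 turned to 0.37 and Msc to 0.10 when each cell was thinned to 2000 UMIs, and Msc to 0.25 and En1 to -0.56 with every cell weighted equally. The equal weighting lowered Wt1 to 0.61, below its counting interval, and 1 cell gave 7.44% of the Wt1 UMIs of KO IP stroma. The 6 markers of lymph node stroma summed to 130 CPM in WT IP stroma and 107 CPM in KO IP stroma. Ccl21a (61.6 and 0 CPM), Ccl19 (34.4 and 24.7 CPM) and Grem1 (3.32 and 0 CPM) were lower in KO IP. Cxcl13 (30.7 and 81.6 CPM) was higher in KO IP, and Madcam1 and Bst1 had 2 UMIs or fewer in each. These marker sets were not tested further as a source of the differences.

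Mesothelial cells were found only in IP, 4 in WT IP and 31 in KO IP, with 0 in both SC libraries. The 31 cells of KO IP held 1551339 UMIs, and their 8 markers summed to 4559 CPM with all 8 detected. The same cells held the 7 stromal markers at 13348.5 CPM, all detected, against 34481.8 CPM in stroma, and 30 of the 31 also met the stromal gate. Their median depth was 52447 UMIs, against 21533 in stroma, and whether some were doublets was not tested. In WT IP all 4 met the stromal gate. Wt1 and Gata6 marked them strongly, each with a UMI in 30 of the 31 (96.8%, 83.3% to 99.9%). Wt1 had 769 UMIs or 496 CPM, a log2 ratio over the stroma of the same library of 0.997 (0.86 to 1.13) that stayed just under 2-fold. Gata6 had 381 UMIs or 246 CPM, 2.74-fold the stromal level (log2 ratio 1.45, 1.25 to 1.66). Gata4, nearly undetected in stroma, had 18 UMIs in 6 cells, or 11.6 CPM (6.88 to 18.3), 11.5-fold the stromal level (log2 ratio 3.52, 2.05 to 5.67).

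The IP-high factors of the stroma were not all shared with the mesothelium. Tcf21 and Nr2f1, both higher in IP stroma, had 0 UMIs in the 31 cells, where 3 counts would give 1.93 CPM. Msc, not called between depots, and En1, higher in SC stroma, also had 0. Stroma was at least 47.6-fold higher for Tcf21, at least 19.4-fold for Nr2f1, at least 6.69-fold for Msc and at least 2.39-fold for En1. Sox9 had 1 UMI against 167 in stroma, a log2 ratio of -5.32 (-11.2 to -3.41). Of the 8 listed genes that passed the filter, 2 were thus called higher in mesothelial cells, against 11.2% of all 11564 genes, and 5 lower, against 15.3%. The 5 passed through their stromal UMIs and Gata4 through its mesothelial ones, so their counts describe the genes and are not read against those shares. Tbx15 had 6 UMIs and Shox2 had 0. Wt1os had 253 UMIs in these cells. In the 4 mesothelial cells of WT IP, Wt1 had 45 UMIs and Gata6 35, each with UMIs in all 4, Tbx15 had 3 in 1 cell and the other 7 listed genes had 0. No KO against WT ratio was formed with 4 cells.

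**Figure D5:**
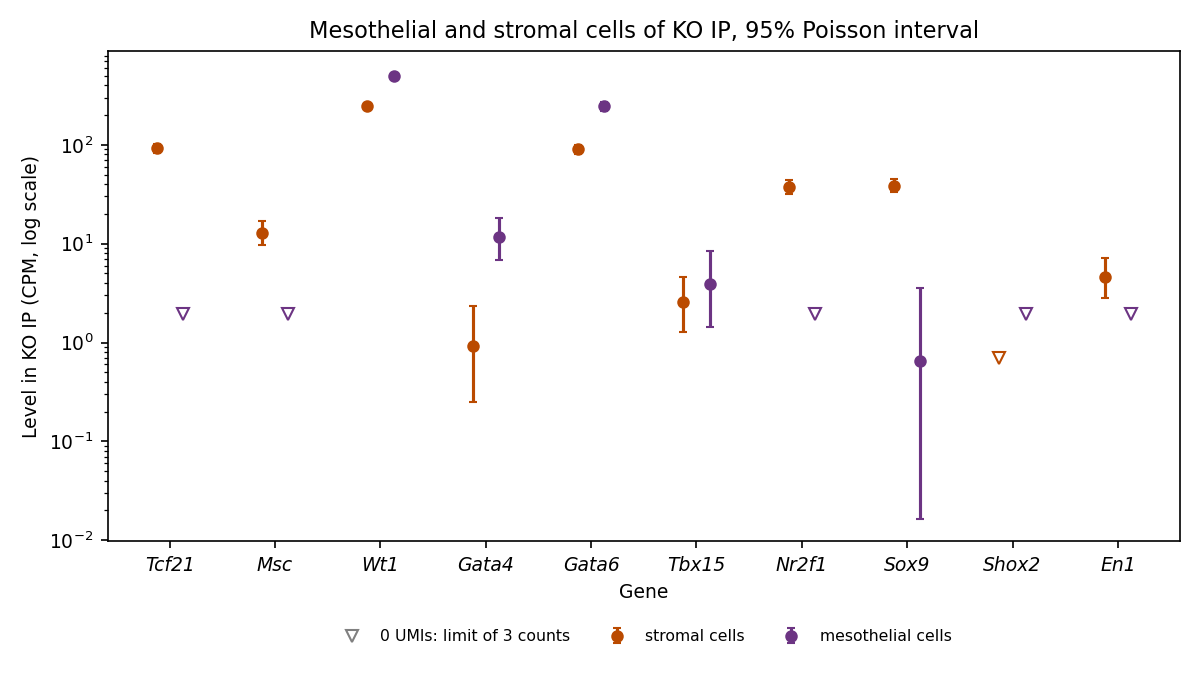
Level of each listed gene in stromal cells and in the 31 mesothelial cells of KO IP (y axis, CPM on a log scale). Bars are 95% Poisson intervals and open triangles mark 0 UMIs at the level of 3 counts. Wt1, Gata4 and Gata6 lie higher in mesothelial cells, and Tcf21, Msc, Nr2f1, Sox9 and En1 lie higher in stroma.

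Lymphocytes served as cells that should lack these genes. They had at least 2 markers of T or of B cells, with no condition on Dcn, and a median depth of 6901 to 7828 UMIs per library, against 20229 (WT) and 5662 (KO) in SC stroma and 23174 and 21533 in IP stroma. In the IP libraries, over 300 lymphocytes, Wt1, Gata6 and Nr2f1 were each found in 2 cells (0.667%, up to 2.39%), Tcf21 and Msc each in 1 (0.333%, up to 1.84%) and the other 5 in 0, which allows up to 1% of cells with a UMI. In the SC libraries, over 2397 lymphocytes, Tbx15 was found in 7 cells (0.292%, up to 0.601%), Gata6 and Shox2 each in 4 (0.167%, up to 0.427%), and Tcf21 and Wt1 in 0. Nearly all of the Tbx15 signal, 43 of 44 UMIs, and all 13 Shox2 UMIs lay in the 9 of these cells with at least 3 Dcn UMIs. Macrophages, with 0 Dcn UMIs and at least 3 markers, numbered 102 and held 2 Wt1 UMIs and 0 of the other 9 genes, which allows up to 2.94% of them with a UMI and sets no limit on cells that express a gene. In 23 endothelial cells, Gata6 had 9 UMIs in 4 cells, Nr2f1 had 3, Wt1 had 1 and the other 7 genes had 0.

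Shox2 was not confined to SC when mural cells were counted, an observation made after the values were seen. Of 22 cells with at least 3 mural markers, 0 Ptprc UMIs and fewer than 3 Dcn UMIs, 9 held Shox2, with 28 UMIs in all (70.4 CPM). In SC these were 10 UMIs over 4 mural cells (WT) and 4 over 7 (KO), and in IP 7 over 3 (WT) and 7 over 8 (KO). The IP libraries therefore held Shox2 in 5 mural cells while all 477 of their stromal cells were at 0. Nr2f1 was also found in mural cells, with 12 UMIs in 6 of the 22, and Tbx15 with 9 UMIs in 6, all in SC. En1, Msc, Wt1 and Gata4 had 0 there.

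Stromal cells were next split by Dpp4 and Pi16, markers of early progenitors. Cells with a UMI of either numbered 67 (WT) and 102 (KO) in SC and 162 (WT) and 150 (KO) in IP, and the rest numbered 28 and 90 in SC and 109 and 56 in IP. The split depends on depth, since the rest had a median of 4772 UMIs in KO IP and 679.5 in KO SC, where 60 of the 90 were shared barcodes. The depot pattern of the most divergent genes was present on both sides of the split. In cells with Dpp4 or Pi16 both SC libraries held 0 Tcf21 and 0 Wt1 UMIs, and levels in IP were 110.5 and 86.8 CPM for Tcf21 and 152 and 258 CPM for Wt1 in WT and KO. Among the rest, the IP levels were 60.3 (WT) and 124.5 (KO) CPM for Tcf21 and 108 and 187 CPM for Wt1. WT SC held 0 UMIs of both there, while KO SC held 7 of each, or 17.4 CPM, and the KO log2 ratios were 2.75 (1.72 to 4.20) for Tcf21 and 3.33 (2.33 to 4.77) for Wt1. Without the shared barcodes the rest of KO SC were 30 cells with 0 UMIs of both, and IP was at least 15.1-fold higher for Tcf21 and at least 22.7-fold for Wt1. Tbx15 had 0 UMIs among the rest in both IP libraries, against 142 CPM in WT SC and 197 in KO SC, or 217 without the shared barcodes.

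Msc differed between the sides of the split. In SC it was 5.80 CPM in cells with Dpp4 or Pi16 and 32.8 CPM in the rest in WT, and 0.783 and 54.8 CPM in KO. In IP the values were 17.9 and 18.6 CPM in WT, and 8.57 and 40.4 CPM in KO. Among cells with Dpp4 or Pi16 its IP against SC ratio was 1.55 in WT (0.57 to 2.89) and 2.89 in KO (0.87 to 8.80), on 8 and 1 SC UMIs, while among the rest it was -0.86 (-1.80 to 0.26) and -0.44 (-1.34 to 0.46). Without the shared barcodes, which held 0 Msc UMIs, the KO ratios were 2.88 (0.86 to 8.79) and -0.58 (-1.48 to 0.32).

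The split also touched the genotype ratios in IP. Wt1 was higher in KO on both sides, with log2 ratios of 0.76 (0.62 to 0.91) and 0.80 (0.45 to 1.13), and Gata6 with 0.57 (0.33 to 0.81) and 0.74 (0.23 to 1.22). Tcf21, at -0.04 over all stroma, was lower in KO among cells with Dpp4 or Pi16, at -0.35 (-0.56 to -0.14), and higher among the rest, at 1.05 (0.60 to 1.48). Msc did likewise, at -1.05 (-1.71 to -0.44) and 1.13 (0.31 to 1.91). Sox9 was lower in KO among cells with Dpp4 or Pi16, at -0.71 (-1.03 to -0.41). Among the rest its interval held 0, at 0.31 (-0.37 to 0.91). The share of cells without either marker was 56 of 206 in KO IP and 109 of 271 in WT IP, and those of KO IP were far shallower, with a median of 4772 against 18225 UMIs. The part of depth in this was not tested.

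Co-occurrence in single cells was read in stromal cells with at least 10000 UMIs, each thinned to that depth. Shallower cells were left out, 36 (WT) and 117 (KO) in SC and 53 (WT) and 56 (KO) in IP. The reading is a description with no test, since cells of a library are not replicates. More pairs were counted than are given here. In WT IP, 51 of 114 cells with Wt1 (44.7%) also held Tcf21, as did 42 of 104 cells without Wt1 (40.4%). In KO IP, 47 of 94 cells with Wt1 held Tcf21, as did 29 of 56 without (51.8%). The shares with and without Wt1 were close in both libraries. Tbx15 and Shox2 co-occurred in 27.5% of 40 Tbx15 cells of WT SC against 26.3% of 19 others, and in 34.9% of 43 against 15.6% of 32 in KO SC.

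Other patterning factors were taken as a list of 71 genes, chosen with earlier results of these data known. Some, such as Foxc2 and Tbx5, passed the filter through the depot where they were high, so the counts below are a description. In WT 40 passed the filter, with 10 called higher in IP, against 7.77% of all genes, and 8 lower, against 6.23%, and a median log2 ratio of -0.42 against 0.077 over all genes. In KO 44 passed, with 8 higher, against 9.04%, and 19 lower, against 5.69%, and a median of -0.67 against 0.100, or 9 higher and 20 lower without the shared barcodes. In both genotypes 8 were called higher in IP and 8 higher in SC. Of these, Foxp2, a forkhead factor, had 12 (WT) and 23 (KO) UMIs in SC and 357 (WT) and 476 (KO) in IP, with log2 ratios of 3.05 in WT and 2.98 in KO. Its relatives Foxc2 and Foxc1, of the paraxial mesoderm and vessels, rested on few SC UMIs. Foxc2 had 1 UMI in each SC library and 42 (WT) and 19 (KO) in IP. Its ratios were 3.04 (1.05 to 8.94) in WT and 2.33 (0.23 to 8.26) in KO. Foxc1 had 6 (WT) and 10 (KO) UMIs in SC, with ratios of 2.44 (1.38 to 4.02) and 1.34 (0.43 to 2.52). Runx1, of blood and mesenchyme, had ratios of 1.33 in WT and 1.71 in KO. Leaving out the shared barcodes gave KO ratios of 3.07 for Foxp2, 2.30 for Foxc2, 1.61 for Foxc1 and 1.94 for Runx1.

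On the SC side, Irx5, an Iroquois homeobox factor, had 24 UMIs in each SC library and 0 in both IP libraries, at least 27.6-fold higher in SC in WT and at least 21.2-fold in KO without the shared barcodes. Tbx5, the T-box factor of the forelimb and heart, had 56 and 46 UMIs in WT SC and KO SC and 1 in each IP library, with log2 ratios of -7.02 (-12.9 to -5.06) and -6.32 (-12.2 to -4.34). Osr2, an odd-skipped zinc finger factor, had ratios of -4.19 and -4.46, and Emx2, a homeobox factor of forebrain and urogenital tract, -3.63 and -2.99. Leaving out the shared barcodes gave KO ratios of -6.36 for Tbx5, -4.49 for Osr2 and -2.99 for Emx2. Like Tbx15 and Shox2, these genes were thus found in SC stroma of both genotypes and were low in IP.

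Between genotypes, Tbx3, Isl1 and Irx3 were the 3 patterning factors called higher in KO SC, of 42 that passed, against 2.41% of all genes, and Meox1 the 1 called lower in KO IP, of 38, against 1.88%, so that the count in IP was near the share of all genes. They are named because the counts are small. Isl1, a LIM homeobox factor, had 36 (KO) and 3 (WT) UMIs in SC, a ratio of 3.44 (1.98 to 5.98), with none of the 36 on shared barcodes. Tbx3 had 35 and 17 UMIs, at 1.08 (0.22 to 2.03), and Irx3 34 and 16, at 1.12 (0.25 to 2.10). These 3 genes passed the filter through KO SC, as WT SC held 17 UMIs or fewer of each, so their count is a description. Meox1, a homeobox factor of the somites, had 49 (KO) and 252 (WT) UMIs in IP, at -1.87 (-2.36 to -1.44).

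Retinoic acid patterns the embryo along the same axes as these factors, and 15 genes of its synthesis, binding and reception were counted. Aldh1a2 passed the filter between depots through IP, as SC held 15 UMIs or fewer, and Cyp26b1 passed between genotypes through KO SC. The list was chosen with earlier results of these data known, so its counts are a description. In WT 10 passed, with 3 called higher in IP, against 7.77% of all genes, and 2 lower, against 6.23%, and a median of -0.20 against 0.077. In KO 11 passed, with 5 higher, against 9.04%, and 2 lower, against 5.69%, and a median of 0.03 against 0.100, and the same counts without the shared barcodes. Between genotypes Cyp26b1, which degrades retinoic acid, was the 1 gene of 10 called higher in KO SC, against 2.41% of all genes, with 31 UMIs against 4 and a ratio of 2.86 (1.51 to 4.97). In IP, Aldh1a2, which makes retinoic acid, was lower in KO, with 96 UMIs against 572 and a ratio of -2.09 (-2.43 to -1.78), and Rdh10, which makes its precursor, was higher, with 322 against 208 UMIs and a ratio of 1.11 (0.85 to 1.37), each 1 gene of 10, against 1.88% of all genes lower and 3.28% higher.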

How the data were processed

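Single-cell libraries of 4 groups were analysed, 1 library per group. Per the file headers, the authors ran Cell Ranger 7.0.0 and deposited its counts of UMIs, not normalized, for each gene in each barcode. The submitters' processing notes also name STAR 2.6 and the build mm10. The use of intronic reads and the cell calling are not given in the sources used here. If intronic reads were included, long genes gain from them. The listed genes, marker lists and comparison lists were chosen with earlier results of these data known.

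Barcodes with 200 or more genes and up to 25% mitochondrial UMIs were retained, and doublets were removed with Scrublet (scanpy 1.11.5, expected rate 5%). These were 17 of the barcodes that passed, a share too low to show that the caller worked, so doublets may remain. In SC, 969 of 1187 (WT) and 1960 of 2115 (KO) barcodes were kept, and in IP 673 of 925 (WT) and 517 of 700 (KO). Total counts per library ran from 10015201 to 15533961.

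UMIs were summed per library and gate. Ratios are log2 of CPM after adding 0.5 UMI, with exact conditional binomial intervals. Intervals of levels are exact Poisson and those of shares above 0 exact Clopper-Pearson, all at 95% and all for counting error only. A count of 0 was taken to allow 3 counts, per library, for a level or a fold, and 3 cells for a share of cells with a UMI. The rule named all 10 listed genes, and of the other patterning factors up to 4 in each direction called in both genotypes, ordered by the smaller ratio. Other called genes are named only where a count was 5 or fewer. Calculations were tested on simulated counts. Alternatives numbered 17 planned and 5 added after seeing the data. Positions are from GENCODE for GRCm38. Python 3.11.15, numpy 2.4.6, scipy 1.17.1 and pandas 2.3.3 were used.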

Additional observations from a re-analysis of the deposited data

Results flagged for a closer look

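Signal of the listed genes was found on barcodes that the filters had left out, above the limit that a count of 0 allows, in 5 cases. Tbx15 had 4 UMIs on such barcodes of KO SC. Tcf21 had 11 and Wt1 had 5 on those of WT IP, and Wt1 had 37 and Gata6 had 14 on those of KO IP. All of these UMIs lay on called doublets, apart from 4 Wt1 UMIs of KO IP on a barcode high in mitochondrial UMIs. Each of these values came from 1 or 2 barcodes, so no depot pattern is read from them, and the left-out barcodes of WT SC held 0 UMIs of every listed gene. Barcodes with fewer than 200 genes, which numbered between 133 and 239 per library, held 0 UMIs of any listed gene.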

How the results depend on the processing

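No paired analysis was possible because each group was 1 library and the labels give no replicate numbers that could pair libraries, and no library could be left out for the same reason. Over 22 alternatives, 167 of 176 counts of called genes stayed within 1.5 times the count given and 9 moved. Of 308 ratios of called genes, 286 stayed within their interval, 21 moved in size and 1 reversed, which was Sox9 in KO, IP against SC, at -0.10 with every cell weighted equally. That weighting gave 1 gene higher in IP in KO, where with the shared barcodes left out it gave 5. Thinning to 2000 UMIs a cell, which leaves fewer UMIs, gave 0 genes lower in IP in WT, and 2 higher and 1 lower in KO. With no minimum of UMIs, 2 genes (Tcf21 and Wt1, on shared barcodes) were higher in KO in SC. In IP, 1 gene (En1) was higher in KO with Dcn of at least 5 UMIs, with Pdgfra required, and with cells of 3 mural markers left out, and 3 genes (Wt1, Gata4 and Gata6) with mesothelial cells kept among the stroma. The alternatives on shared barcodes, on residual mesothelial markers and on mural markers were chosen after seeing the data. Apart from Sox9, no called depot ratio changed sign under any of them. Depth limits Gata4 in stroma, all genotype ratios of SC but that of Tbx15, and any statement on the 4 mesothelial cells of WT IP.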
